A study of Homo sapiens with 8 samples.

Results

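Expression of 48 genes of mitosis and the G2/M transition was followed in the SK-N-MC line, which is derived from a Ewing sarcoma. The genes were listed by symbol for their known function, out of the 60332 genes in the table, with earlier results of these data known. They encode mitotic cyclins and kinases, spindle, kinetochore and cytokinesis proteins and the transcription factors that act on such genes. All 48 had at least 1 FPKM (sequenced fragments per kilobase of transcript, relative to the mapped reads of a library) in at least 2 of the 8 libraries and were among the 15372 genes tested.

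RNA was sequenced from 4 groups of cells with 2 libraries each. All cells carried a lentivirus for dCas9-KRAB, in which Cas9 without cutting activity carries the KRAB repressor domain, and had been selected with puromycin as uncloned pools. Control cells held the empty vector without a guide and were either grown in normoxia or placed in 1% O2 for 16 h. The eKD1 and eKD2 cells each held a different guide beside the GGAA repeat enhancer of LOXHD1 and were sampled here after 16 h in 1% O2, so no normoxic eKD library was analysed.

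Entry into mitosis is driven by CDK1 bound to cyclin B and by the Polo and Aurora kinases. Checkpoint proteins at unattached kinetochores hold the anaphase-promoting complex in check until its activator CDC20 is released, after which securin and cyclin B are degraded and the cell divides. Transcripts of these proteins accumulate in G2 and mitosis, when the DREAM repressor complex has given way to MYBL2 and FOXM1 at the cell cycle genes homology region (CHR) of their promoters, near CCAAT boxes bound by NF-Y. In RNA from a whole culture, fewer cells in G2 and mitosis cannot be told apart from less of the transcript in each such cell.

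In control cells, 34 of the 48 genes fell in hypoxia and 2 rose, beside 16.0% lower and 16.2% higher of all genes tested. Cyclin B1, PLK1 and CDC20 stood at 35.9%, 39.9% and 41.6% of their normoxic means, and HMMR at 26.4%. CDK1, FOXM1 and survivin (BIRC5) did not pass the test, and MYBL2 and securin (PTTG1) were the genes that rose. In hypoxic eKD2 cells 12 of the 48 were higher than in hypoxic control cells and 0 were lower, beside 5.80% and 3.81% of all genes. The 12 calls fell to 0 without a variance trend, beside 0.182% of all genes. They also fell to 0 with a replicate block, beside 0 of all 15372 genes. In eKD1 0 of the 48 passed the test, and 10 of all 15372 genes did.

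LOXHD1 was checked as the targeted gene. Control hypoxia gave 93.0 and 91.1 FPKM, eKD1 gave 17.3 and 15.0 FPKM and eKD2 gave 11.7 and 11.8 FPKM. The eKD means were 17.6% and 12.7% of control hypoxia, which fits the group labels. The library totals ran from 865107 to 1041457 FPKM, lowest in control normoxia and highest in control hypoxia. Relative depth, read from the worth of 1 read, was 76.0% and 55.7% of the deepest library in normoxia. It was 100% and 96.1% in control hypoxia, 82.7% and 61.2% in eKD1 and 77.6% and 77.1% in eKD2. Control hypoxia was thus the deepest group, and the part of depth in its comparisons was not tested. The 7 Ewing sarcoma markers checked were above 1 FPKM in at least 1 library and summed to between 1190 and 1495 FPKM. CCND1 and CD99 made up most of this sum, which hides changes of the others. In control hypoxia 5 of the 7 fell and 1 rose, beside 16.0% and 16.2% of all genes tested. In eKD2, 3 were higher and 1 lower than in control hypoxia, beside 5.80% and 3.81%. LIPI read 49.5 and 57.2 FPKM in normoxia and 10.8 and 11.2 in control hypoxia. It read 23.4 and 26.5 FPKM in eKD1 and 21.1 and 19.0 in eKD2. Of 11 markers of other cell types, 6 were under 1 FPKM in every library (CD3E, CD14, CDH5, KRT5, MYOG and MYOD1). The summed level of the 11 was 147 FPKM in both normoxia libraries, 88.9 to 95.9 FPKM in control hypoxia, 158 to 159 FPKM in eKD1 and 139 to 143 FPKM in eKD2. Most of this sum was KRT18, a keratin, at 115 and 117 FPKM in normoxia, 74.8 and 80.3 in control hypoxia, 137 and 139 in eKD1 and 115 and 120 in eKD2. PTPRC, the leukocyte antigen CD45, read 22.5 and 23.8 FPKM in normoxia, 4.87 and 5.39 in control hypoxia, 10.0 and 9.59 in eKD1 and 14.3 and 13.5 in eKD2. Both markers thus moved between the groups together with many of the genes below, and their part in those results was not tested.

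Promoter sequence is shown for the CHR and CCAAT motifs described above. RefSeq windows from 250 bases before to 50 after the gene start (GRCh38.p14) matched 41 of the 48 genes, all but TPX2, FOXM1, TTK, BIRC5, AURKA, BUB3 and UBE2C. The CHR core was searched as TTTGAA or TTTAAA and the CCAAT box as CCAAT, on both strands, so that TTCAAA and ATTGG also count and hits of the 2 strands can overlap. A gene counted when any of its windows held the motif. PTTG1 had 2 windows, and the first is the one printed below. A CHR core was present in 36 of the 41 genes (87.8%) against 27.9% of the 27305 genes with a window. A CCAAT box was present in 34 (82.9%) against 39.7%, and both motifs in 30 (73.2%) against 12.7%. The 48 were listed as genes of mitosis and G2/M, a class known for these motifs. The shares thus describe the list and not the response to hypoxia. The 27305 genes also include genes that were not tested here. A match is a run of letters and not a bound site. The 130 bases before the start are printed 5′ to 3′ on the strand of the gene, with motif letters in capitals, for the 6 genes with the largest fall in hypoxia and for the 2 that rose. They were CENPE at chr4:103198344-103198473 on the minus strand, HMMR at chr5:163460502-163460631 on the plus strand, ASPM at chr1:197146670-197146799 on the minus strand, CCNB1 at chr5:69167020-69167149 on the plus strand, PLK1 at chr16:23678759-23678888 on the plus strand, CDC20 at chr1:43358851-43358980 on the plus strand, MYBL2 at chr20:43666984-43667113 on the plus strand, PTTG1 at chr5:160421725-160421854 on the plus strand.
CENPE: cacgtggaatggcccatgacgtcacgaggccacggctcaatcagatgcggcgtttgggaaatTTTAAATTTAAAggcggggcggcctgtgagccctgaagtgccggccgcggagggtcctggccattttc
HMMR: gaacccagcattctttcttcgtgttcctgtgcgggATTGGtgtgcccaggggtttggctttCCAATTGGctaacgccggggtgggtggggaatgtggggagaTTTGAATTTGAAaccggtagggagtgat
ASPM: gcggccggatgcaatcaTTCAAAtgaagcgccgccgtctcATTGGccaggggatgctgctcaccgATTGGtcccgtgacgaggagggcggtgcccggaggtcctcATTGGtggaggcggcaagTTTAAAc
CCNB1: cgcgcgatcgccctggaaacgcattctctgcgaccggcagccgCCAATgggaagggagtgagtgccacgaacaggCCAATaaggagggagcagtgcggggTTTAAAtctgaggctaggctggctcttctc
PLK1: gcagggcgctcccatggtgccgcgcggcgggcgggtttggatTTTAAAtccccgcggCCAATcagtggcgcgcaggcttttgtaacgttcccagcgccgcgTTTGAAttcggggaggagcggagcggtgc
CDC20: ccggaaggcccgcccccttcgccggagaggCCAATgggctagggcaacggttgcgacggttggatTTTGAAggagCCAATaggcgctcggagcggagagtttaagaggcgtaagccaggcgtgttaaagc
MYBL2: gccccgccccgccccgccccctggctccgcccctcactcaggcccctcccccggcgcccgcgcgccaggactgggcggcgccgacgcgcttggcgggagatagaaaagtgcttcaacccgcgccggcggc
PTTG1: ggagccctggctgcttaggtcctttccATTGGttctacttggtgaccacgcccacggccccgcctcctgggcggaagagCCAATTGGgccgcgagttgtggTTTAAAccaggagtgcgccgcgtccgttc

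CENPE held 2 adjoining CHR cores and no CCAAT box in these bases, whereas HMMR held 2 CHR cores and 3 CCAAT boxes. CCNB1, PLK1 and CDC20 each held at least 1 of each motif. MYBL2 held 0 of both, and also 0 in its whole window of 300 bases. PTTG1, which rose as well, held 1 CHR core and 3 CCAAT boxes. Whether the motifs go with the direction of change was not tested. Over the matched genes the median log2 change in hypoxia was -0.66 with a CHR core (36 genes) and -0.54 without (5 genes), a description from few genes without the motif.

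Over the 48 genes, the mean of log2(FPKM + 1) was 6.06 and 6.04 in the libraries of control normoxia and 5.40 and 5.37 in those of control hypoxia. It was 5.57 and 5.53 in eKD1 and 5.68 and 5.67 in eKD2. Library 1 of control hypoxia was below both normoxia libraries for 43 genes and library 2 for 42. The same held for 39 and 43 genes with the eKD1 guide and for 39 and 41 with the eKD2 guide. Such counts per library were not made over all genes tested, so whether they exceed the background was not tested. The median level was 65.9% of the normoxic mean in control hypoxia, with a range from 20.4% for CENPE to 128.7% for PTTG1. It was 71.7% in eKD1 and 80.4% in eKD2. Libraries of a group were close to each other, with a median coefficient of variation over the 48 genes between 3.17% in control hypoxia and 6.23% in eKD2. CENPE had the highest value in every group, from 19.7% in eKD2 to 67.8% in eKD1. Some other duplicates were also discordant, with 34.3% for KIF20B, 28.4% for NUF2 and 22.7% for ANLN in eKD1, 24.7% for PLK4 in control hypoxia, 20.9% for TTK in normoxia and 18.3% for PRC1 in eKD2.

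**Figure D1:**
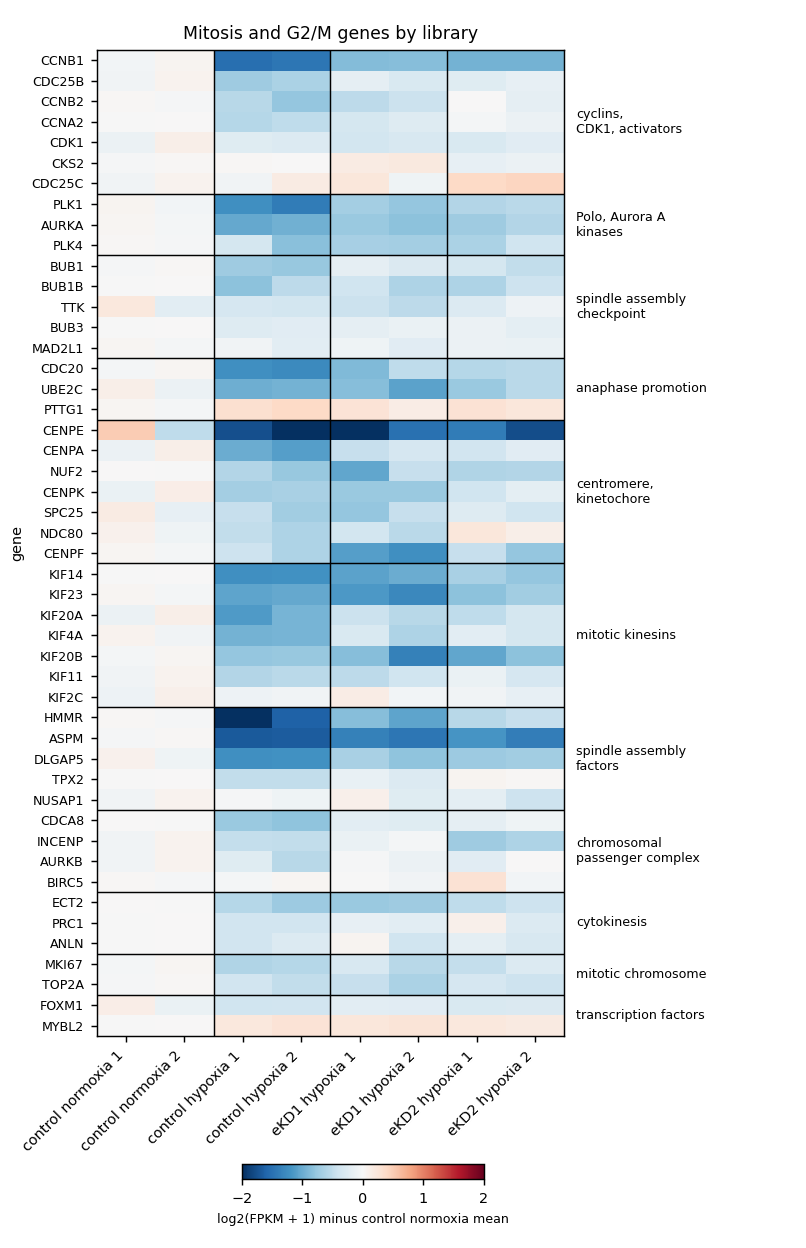
Each cell gives log2(FPKM + 1) of a gene (row, grouped by role) in a library (column) minus the mean of the 2 control normoxia libraries, with blue below and red above and colours capped at 2 log2 units either way. The control hypoxia columns are blue for most genes, deepest for CENPE, HMMR, ASPM and CCNB1, and the eKD columns are paler for many of them.

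The comparison of control hypoxia with control normoxia asked what 16 h in 1% O2 changes. Among all genes tested, 16.2% were called higher and 16.0% lower at a limma adjusted p under 0.05, beside 2 and 34 of the 48. Both hypoxia libraries were below both normoxia libraries for 41 of the 48 and above both for 2, beside 34.5% and 35.9% of all genes tested. The median log2 change of the 48 was -0.59, and that of all genes tested was 0.01. Changes are differences of log2(FPKM + 1), tested with limma on 2 against 2 libraries. When any single library was left out, the remaining 3 left so few degrees of freedom that 0 of the 48 were called, while a fit that shared the spread of all groups called 26 to 32 with a library left out, beside 22.6% to 26.9% of all genes. With library totals made equal, the median of all genes moved to -0.19 and that of the 48 to -0.82.

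Of the 7 cyclins, CDK1 and its activators, 4 fell in hypoxia and 3 did not pass the test. CCNB1, the mitotic cyclin B1 (chromosome 5, 68462962 to 68474072, GRCh37), was read at 286 and 307 FPKM in normoxia and 104 and 109 FPKM in control hypoxia. Both hypoxia libraries lay far below both normoxia libraries, by -1.47 on the log2 scale (SE 0.0606, adjusted p = 0.00641 by limma). CDK1, the kinase that cyclin B activates, had 68.3 and 81.2 FPKM in normoxia and 62.7 and 61.2 FPKM in hypoxia. The hypoxia libraries were again the lower ones, yet the log2 change of -0.26 did not pass the adjusted threshold (SE 0.105, adjusted p = 0.139 by limma). Cyclin B2 (CCNB2, -0.66), cyclin A2 (CCNA2, -0.54) and the CDK1-activating phosphatase CDC25B (-0.68) fell as well. Its relative CDC25C (0.04) and CKS2 (0.01), a small CDK-binding protein, did not pass.

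Among the Polo and Aurora A kinases, PLK1 and AURKA fell and PLK4 did not pass. PLK1, which drives mitotic entry and spindle assembly (chromosome 16, 23688977 to 23701688, GRCh37), was read at 149 and 136 FPKM in normoxia and 60.4 and 53.2 FPKM in hypoxia. AURKA, the kinase of the spindle poles, went from 60.7 and 57.1 FPKM to 28.6 and 29.9 FPKM. For both genes the groups did not overlap, and the difference came to -1.31 (SE 0.0934, adjusted p = 0.00809 by limma) for PLK1 and -0.99 (SE 0.0744, adjusted p = 0.00809 by limma) for AURKA. PLK4, the kinase of centriole duplication, had a log2 change of -0.59 with discordant hypoxia libraries at 34.5 and 24.2 FPKM (adjusted p = 0.0898 by limma).

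The spindle assembly checkpoint gave 3 falls among 5 genes. BUB1, a checkpoint kinase at the kinetochore, was at 44.6 and 45.9 FPKM in normoxia and 27.1 and 26.3 FPKM in hypoxia, a log2 change of -0.74 (SE 0.0709, adjusted p = 0.00976 by limma). Its libraries were tightly paired in both groups. MAD2L1, which binds and holds CDC20, was at 125 and 118 FPKM against 116 and 104 FPKM. The hypoxia libraries were the lower ones by a small margin, and the log2 change of -0.14 did not pass (SE 0.0799, adjusted p = 0.249 by limma). BUB1B (-0.67) and BUB3 (-0.24), partners in the inhibitor of CDC20, fell. TTK, the kinase that starts the checkpoint signal, had -0.35 and did not pass.

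Of the 3 genes of anaphase promotion, CDC20 and UBE2C fell and PTTG1 rose. CDC20, the activator of the anaphase-promoting complex (chromosome 1, 43824652 to 43828874, GRCh37), was at 163 and 170 FPKM in normoxia and 70.6 and 68.0 FPKM in hypoxia. Its groups were far apart, with a log2 change of -1.25 (SE 0.0568, adjusted p = 0.00653 by limma). UBE2C, the ubiquitin-conjugating enzyme of that complex, fell by 0.96 on the log2 scale. PTTG1, securin, which keeps separase inactive until anaphase, was at 124 and 116 FPKM in normoxia and 150.0 and 159 FPKM in hypoxia. Both hypoxia libraries were above both normoxia libraries, with a log2 change of 0.36 (SE 0.0623, adjusted p = 0.0252 by limma). With equal library totals the change was 0.12 (adjusted p = 0.26 by limma). With median-of-ratios rescaling, which scales each library by its median ratio over genes, the PTTG1 change was 0.36 (adjusted p = 0.0294 by limma). Reads of the near-identical gene PTTG2 could be shared with PTTG1, so its level carries that uncertainty.

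The 7 genes of the centromere and kinetochore all had a lower mean in hypoxia, and 6 were called. CENPE, a kinesin that moves chromosomes to the spindle equator, had the largest fall and the poorest agreement between libraries. It was read at 59.4 and 29.0 FPKM in normoxia and at 11.6 and 6.47 FPKM in hypoxia. The groups did not overlap, and the log2 change was -2.13 (SE 0.462, adjusted p = 0.0394 by limma). Without library 1 of control normoxia it was -1.63 (adjusted p = 0.123 by limma). CENPA, the histone variant that marks the centromere, went from 43.5 and 50.8 FPKM to 23.2 and 21.3 FPKM. CENPF, a large kinetochore protein of G2, went from 98.3 and 93.2 FPKM to 71.6 and 61.9 FPKM. NDC80, the microtubule-binding subunit of the outer kinetochore, went from 39.4 and 35.3 FPKM to 26.2 and 23.9 FPKM. In these 3 genes every hypoxia library was below every normoxia library. The log2 changes were -1.05 for CENPA (SE 0.113, adjusted p = 0.0114 by limma), -0.52 for CENPF (SE 0.0949, adjusted p = 0.0286 by limma) and -0.56 for NDC80 (SE 0.102, adjusted p = 0.0283 by limma). NUF2 and CENPK fell by 0.67 each on the log2 scale, and SPC25, like NUF2 a subunit of the NDC80 complex, had -0.58 and did not pass.

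Mitotic kinesins, the motors that order spindle microtubules, gave 6 falls among 7 genes. KIF11, the motor that pushes the spindle poles apart, was at 19.2 and 21.1 FPKM in normoxia and 13.0 and 13.5 FPKM in hypoxia. KIF20A, a motor of the central spindle, was at 49.8 and 59.1 FPKM against 24.2 and 28.0 FPKM. Both genes were lower in both hypoxia libraries. The log2 change was -0.57 for KIF11 (SE 0.101, adjusted p = 0.0265 by limma) and -1.03 for KIF20A (SE 0.132, adjusted p = 0.0149 by limma). KIF14 (-1.22), KIF23 (-1.04), KIF4A (-0.94) and KIF20B (-0.76) fell as well, KIF20B from the lowest normoxic level of the 48. KIF2C, a microtubule depolymerase at the centromere, had -0.08 and did not pass.

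Of the 5 spindle assembly factors, 4 fell. HMMR, a microtubule-associated protein of the spindle (chromosome 5, 162887209 to 162918947, GRCh37), was at 30.0 and 29.3 FPKM in normoxia and 6.73 and 8.93 FPKM in hypoxia. ASPM, which acts at the spindle poles (chromosome 1, 197053251 to 197115824, GRCh37), was at 18.2 and 18.8 FPKM against 5.10 and 5.18 FPKM. TPX2, the activator of Aurora A on spindle microtubules, was at 86.0 and 86.7 FPKM against 61.0 and 60.9 FPKM. The groups were apart in all 3 and the duplicates of ASPM and TPX2 differed little. The log2 change was -1.81 for HMMR (SE 0.159, adjusted p = 0.00896 by limma), -1.67 for ASPM (SE 0.107, adjusted p = 0.00759 by limma) and -0.50 for TPX2 (SE 0.0538, adjusted p = 0.0114 by limma). DLGAP5 fell by 1.22 on the log2 scale. NUSAP1, which bundles spindle microtubules, had -0.05 and did not pass.

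The 4 members of the chromosomal passenger complex, which corrects chromosome attachment and starts cytokinesis, did not move alike. CDCA8 (-0.77) and INCENP (-0.48) fell. AURKB, the kinase of the complex, was at 57.2 and 63.0 FPKM in normoxia and 50.7 and 40.7 FPKM in hypoxia, with a log2 change of -0.39 that did not pass (SE 0.136, adjusted p = 0.103 by limma). BIRC5, survivin, was at 97.0 and 94.0 FPKM against 92.9 and 97.6 FPKM. The BIRC5 groups overlapped, with a log2 change of -0.00 (SE 0.0583, adjusted p = 0.972 by limma).

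All 3 cytokinesis genes and both genes of the mitotic chromosome fell. PRC1, which bundles the microtubules of the midzone, was at 286 and 287 FPKM in normoxia and 219.6 and 219.7 FPKM in hypoxia, a log2 change of -0.38 (SE 0.0398, adjusted p = 0.0108 by limma). It was the gene of the 48 with the highest level in control hypoxia. TOP2A, which untangles sister DNA, went from 227 and 237 FPKM to 177 and 164 FPKM. MKI67, the antigen Ki-67 that coats mitotic chromosomes, went from 51.2 and 53.8 FPKM to 34.4 and 35.0 FPKM. The groups of both genes stood apart, with a log2 change of -0.44 for TOP2A (SE 0.0619, adjusted p = 0.0174 by limma) and -0.58 for MKI67 (SE 0.0683, adjusted p = 0.0129 by limma). ECT2 (-0.65), which activates RhoA at the cleavage furrow, and the scaffold protein ANLN (-0.33) also fell.

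The transcription factors FOXM1 and MYBL2 differed in sign. FOXM1 was at 84.4 and 70.7 FPKM in normoxia and 58.3 and 59.1 FPKM in hypoxia. The hypoxia libraries were lower, but the normoxia libraries lay apart and the log2 change of -0.39 did not pass (SE 0.106, adjusted p = 0.0629 by limma). MYBL2, which takes the place of the DREAM repressor on these promoters, was at 167.0 and 167.1 FPKM in normoxia and 193 and 202 FPKM in hypoxia. It rose in both libraries, by 0.24 as log2 change (SE 0.0484, adjusted p = 0.0351 by limma). With equal library totals the MYBL2 change was -0.00240 (adjusted p = 0.978 by limma). With median-of-ratios rescaling it was 0.24 (adjusted p = 0.0365 by limma). The direction of MYBL2 thus rests on which scaling of the libraries is used. With no filter on low values, with no variance trend and with the replicate number as a block, 0 of the 48 were called higher. Of all genes tested, 1596 of 27155, 2192 of 15372 and 1319 of 15372 were then called higher.

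**Figure D2:**
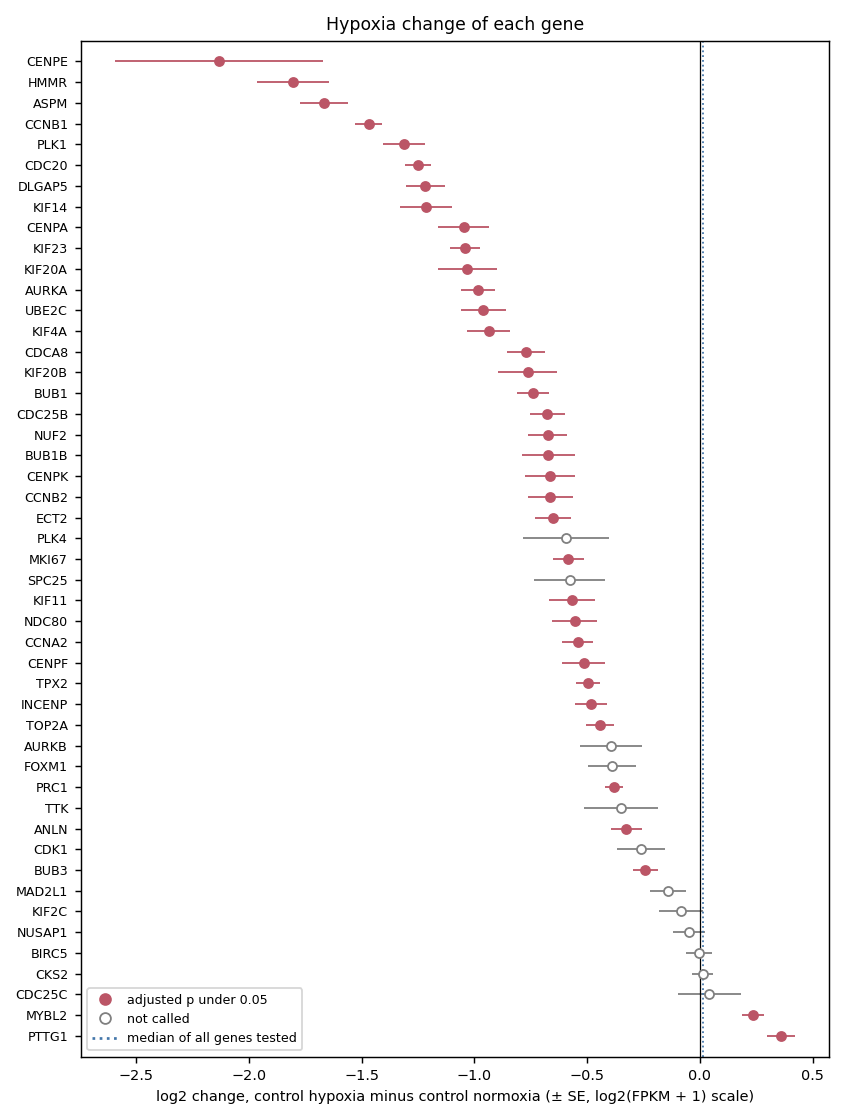
The horizontal axis gives the log2 change of each gene (row) between control hypoxia and control normoxia on the log2(FPKM + 1) scale, with bars of 1 SE from limma, and filled points are the genes called. The points run from -2.13 for CENPE to 0.36 for PTTG1, and 44 of the 48 lie below 0 while the dotted median of all genes tested is at 0.01.

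The eKD comparisons asked what repression of the LOXHD1 enhancer changes in hypoxia. Both use the same 2 control hypoxia libraries, so their values are given side by side and are not independent. The hypoxia comparison uses these 2 libraries too, with the opposite sign. A gene that read low in them would appear both to fall in hypoxia and to rise in eKD. Whether eKD levels between those of control hypoxia and normoxia mark a partial return was not tested. In eKD1, limma called 0 of the 48 in either direction, beside 0.0130% called higher and 0.0520% called lower among all genes. At an unadjusted p under 0.05, 17 of the 48 were higher and 1 was lower, beside 11.7% and 10.0% of all genes tested. Both eKD1 libraries were above both control libraries for 26 of the 48 and below both for 7, beside 27.6% and 26.0% of all genes. The median log2 change was 0.15 for the 48 and 0.00 for all genes tested. A fit that shared the spread of all 8 libraries called 10 of the 48, 9 higher and 1 lower, beside 2.89% and 2.06% of all genes. Every other alternative with all libraries in called 0, beside 0% to 0.759% of all genes.

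In eKD2, 12 of the 48 were called higher and 0 lower, beside 5.80% and 3.81% of all genes tested. Taken without adjustment, 21 had p under 0.05 for a higher and 1 for a lower level, beside 19.6% and 13.2% of all genes. Both eKD2 libraries were above both control libraries for 31 of the 48 and below both for 5, beside 35.8% and 26.4% of all genes. The median log2 change was 0.29 for the 48 and 0.05 for all genes tested. The 12 calls depended on the fit. Without a variance trend 0 of the 48 were called, beside 0.182% of all genes. With the replicate number as a block 0 were called, beside 0 of all 15372 genes. With no filter on low values 4 were called, beside 3.14% of all genes then tested. With the spread shared over all 8 libraries 17 were called higher and 0 lower, beside 10.4% and 6.51% of all genes, or 5 to 9 when a library was also left out, beside 4.36% to 6.73%.

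The spindle assembly factors held 3 of the 12 genes called in eKD2. HMMR had 16.0 and 13.8 FPKM with eKD1 and 19.8 and 21.3 FPKM with eKD2. All 4 eKD libraries were above the 6.73 and 8.93 FPKM of control hypoxia and below the 30.0 and 29.3 FPKM of normoxia. The log2 change against control hypoxia was 0.86 in eKD1 (SE 0.182, adjusted p = 0.139 by limma) and 1.30 in eKD2 (SE 0.165, adjusted p = 0.0359 by limma). TPX2 had 78.1 and 71.6 FPKM with eKD1 and 89.2 and 88.0 FPKM with eKD2, the latter above the 86.0 and 86.7 FPKM of normoxia. Its log2 change was 0.29 in eKD1 (adjusted p = 0.154 by limma) and 0.53 in eKD2 (adjusted p = 0.0294 by limma). DLGAP5 rose by 0.51 in eKD2 and had 0.50 in eKD1. ASPM had 6.60 and 6.16 FPKM with eKD1 and 7.59 and 6.48 FPKM with eKD2, with log2 changes of 0.27 and 0.39 that did not pass.

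Of the cyclins, CDK1 and its activators, 3 rose in eKD2. CCNB1 had 162 and 163 FPKM with eKD1 and 153 and 154 FPKM with eKD2. The duplicates were nearly equal and all 4 libraries lay between those of control hypoxia and normoxia. The log2 change was 0.61 in eKD1 (SE 0.0502, adjusted p = 0.102 by limma) and 0.52 in eKD2 (SE 0.0489, adjusted p = 0.0289 by limma). CCNA2 (0.47) and CDC25B (0.47) rose in eKD2, beside 0.24 and 0.43 in eKD1. CDK1 had 57.3 and 59.4 FPKM with eKD1 and 60.3 and 63.6 FPKM with eKD2, close to control hypoxia, with log2 changes of -0.09 and -0.00 that did not pass.

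The kinases and the genes of anaphase promotion gave PLK1 and CDC20 among the calls. PLK1 had 88.1 and 83.2 FPKM with eKD1 and 94.2 and 97.9 FPKM with eKD2, above both control hypoxia libraries in each case. The log2 change was 0.59 in eKD1 (SE 0.0894, adjusted p = 0.116 by limma) and 0.75 in eKD2 (SE 0.0853, adjusted p = 0.033 by limma). CDC20 had 89.9 and 116 FPKM with eKD1 and 111 and 114 FPKM with eKD2. Its eKD1 libraries lay far apart, and the log2 change was 0.55 in eKD1 (SE 0.143, adjusted p = 0.166 by limma) and 0.69 in eKD2 (SE 0.0525, adjusted p = 0.0273 by limma). AURKA had 35.0 and 32.8 FPKM with eKD1 and 35.4 and 39.0 FPKM with eKD2, with log2 changes of 0.21 and 0.34 that did not pass. PTTG1 had 145 and 133 FPKM with eKD1 and 146 and 140 FPKM with eKD2. These lay below both control hypoxia libraries, with log2 changes of -0.15 and -0.11 that did not pass.

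At the kinetochore, CENPA and NDC80 rose in eKD2. CENPA had 34.0 and 36.8 FPKM with eKD1 and 35.7 and 39.9 FPKM with eKD2, with a log2 change of 0.65 in eKD1 (SE 0.0926, adjusted p = 0.114 by limma) and 0.74 in eKD2 (SE 0.0989, adjusted p = 0.0373 by limma). Every eKD library was above both control hypoxia libraries. NDC80 had 28.8 and 25.4 FPKM with eKD1 and 43.6 and 40.5 FPKM with eKD2. The eKD1 libraries overlapped those of control hypoxia, and the eKD2 libraries were above all libraries of the other groups. The log2 change was 0.11 in eKD1 (SE 0.108, adjusted p = 0.612 by limma) and 0.72 in eKD2 (SE 0.089, adjusted p = 0.0345 by limma). CENPF had 43.9 and 40.2 FPKM in eKD1, below every other library, and 69.5 and 55.3 FPKM in eKD2. It was the gene with an unadjusted p under 0.05 for a lower level in eKD1, with a log2 change of -0.65 (SE 0.104, adjusted p = 0.118 by limma), and its change in eKD2 was -0.10. CENPE had 4.96 and 14.1 FPKM with eKD1 and 15.1 and 11.4 FPKM with eKD2. The CENPE libraries of both groups overlapped those of control hypoxia.

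**Figure D3:**
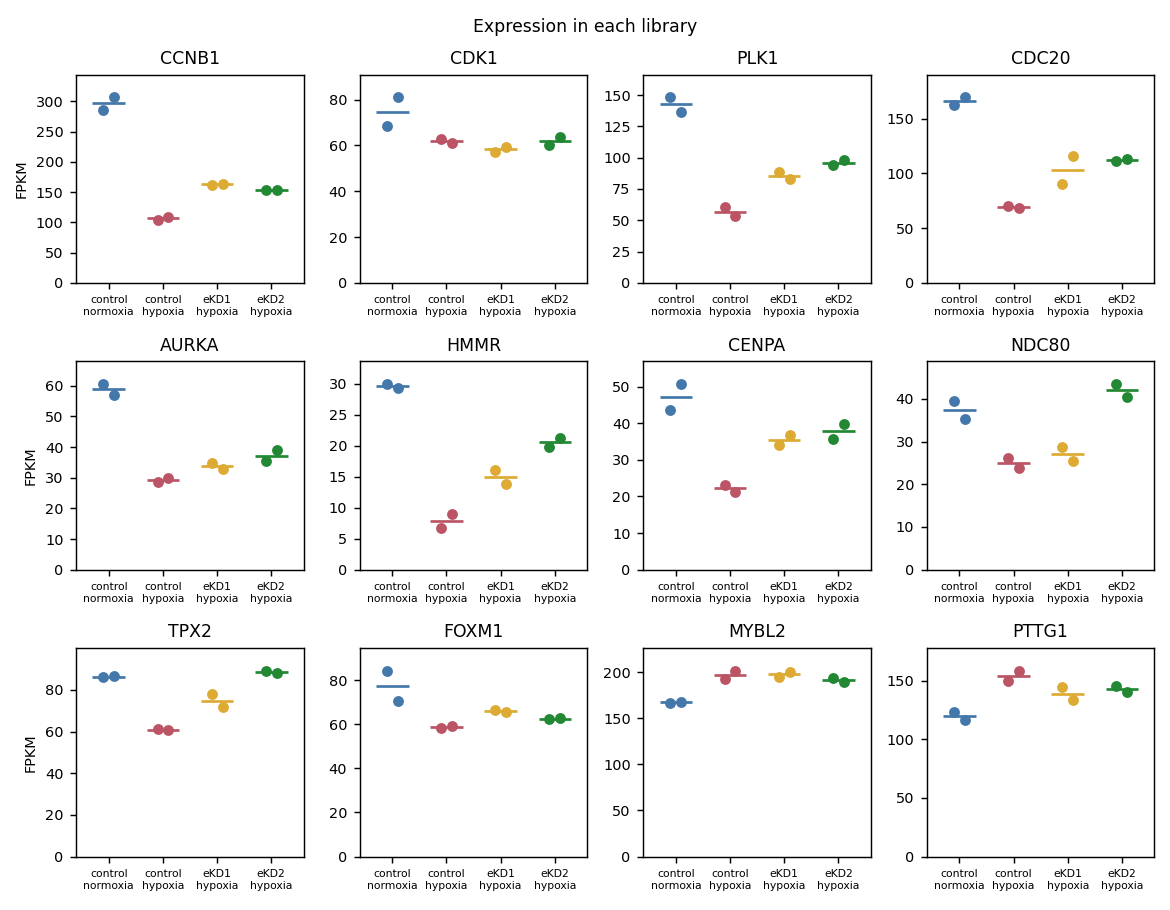
The vertical axis of each panel gives FPKM from 0, the points are the 2 libraries of a group and the line is their mean. CCNB1, PLK1, CDC20, HMMR and CENPA are lowest in control hypoxia and higher in both eKD groups, NDC80 is highest in eKD2, and MYBL2 and PTTG1 are lowest in normoxia.

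The remaining roles held KIF4A (0.65) and CDCA8 (0.64) among the eKD2 calls, beside 0.47 and 0.54 in eKD1. KIF20A had 40.0 and 36.5 FPKM with eKD1 and 37.7 and 42.4 FPKM with eKD2, above control hypoxia in all 4 libraries. Its log2 changes of 0.54 and 0.60 did not pass (adjusted p = 0.135 and 0.0593 by limma). KIF11 had 13.7 and 15.1 FPKM with eKD1 and 18.2 and 15.7 FPKM with eKD2, with changes of 0.11 and 0.33 that did not pass. BUB1 had 40.0 and 37.0 FPKM with eKD1 and 35.3 and 31.9 FPKM with eKD2, above control hypoxia throughout, with changes of 0.51 (adjusted p = 0.117 by limma) and 0.32 (adjusted p = 0.0993 by limma). MAD2L1, at 115 and 103 FPKM with eKD1 and 112 and 111 FPKM with eKD2, overlapped control hypoxia, and no gene of the checkpoint was called in either comparison.

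AURKB had 58.7 and 55.1 FPKM with eKD1 and 50.9 and 60.4 FPKM with eKD2, with log2 changes of 0.32 and 0.28 that did not pass. BIRC5 had 94.9 and 90.8 FPKM with eKD1 and 117 and 91.7 FPKM with eKD2, and its groups overlapped those of control hypoxia. PRC1 had 256 and 247 FPKM with eKD1 and 307 and 237 FPKM with eKD2. All 4 PRC1 values were above control hypoxia, but its eKD2 libraries lay apart and the changes of 0.19 and 0.29 did not pass. TOP2A had 168 and 150 FPKM with eKD1 and 183 and 175 FPKM with eKD2. MKI67 had 41.8 and 35.5 FPKM with eKD1 and 37.2 and 43.4 FPKM with eKD2. Neither chromosome gene passed, with TOP2A changes of -0.11 and 0.07 and MKI67 changes of 0.15 and 0.21. FOXM1 had 66.7 and 65.8 FPKM with eKD1 and 62.4 and 62.8 FPKM with eKD2, small shifts of 0.17 and 0.09 above control hypoxia that did not pass. MYBL2 had 195 and 200.1 FPKM with eKD1 and 194 and 189 FPKM with eKD2, overlapping control hypoxia.

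**Figure D4:**
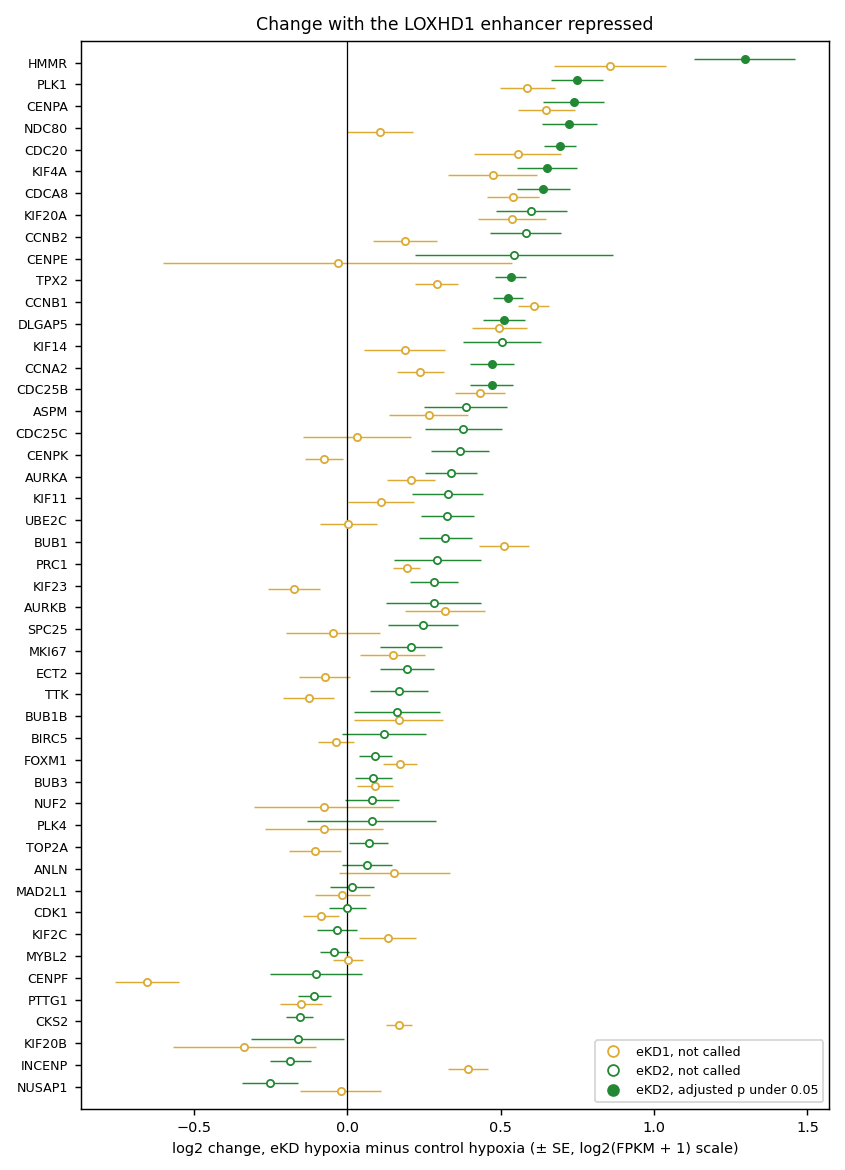
The horizontal axis gives the log2 change of each gene (row) in eKD1 (yellow) and eKD2 (green) against control hypoxia on the log2(FPKM + 1) scale, with bars of 1 SE from limma, and filled points are the genes called. In eKD2, 39 of the 48 points lie above 0, up to 1.30 for HMMR, and the 12 filled ones are all on that side, while all eKD1 points are open.

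Set directly against eKD1, eKD2 had 0 genes of the 48 called by limma, beside 0.286% called higher and 0.117% called lower among all genes. At an unadjusted p under 0.05, 9 were higher and 2 lower in eKD2, beside 13.8% and 9.73% of all genes. The libraries did not overlap for 21 genes higher and 7 lower in eKD2, beside 31.9% and 23.3%. The median log2 difference was 0.13 for the 48 and 0.05 for all genes tested. NDC80 (0.62, adjusted p = 0.094 by limma) and CENPF (0.55, adjusted p = 0.147 by limma) stood higher in eKD2, and INCENP (-0.58, adjusted p = 0.0825 by limma), named after its values were seen, stood lower. The shared fit of all 8 libraries called 4 of the 48, 2 in each direction, beside 5.26% higher and 3.79% lower of all genes, so that the members' share was near the background. The calls in eKD2 and their lack in eKD1 are thus not shown to be a difference between the guides.

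Genes of neighbouring pathways were read from further lists, whose counts are to be set beside the 16.2% called higher and 16.0% lower among all genes in hypoxia and the 5.80% and 3.81% in eKD2. Of 71 other mitosis genes, 23 fell and 5 rose in hypoxia (median log2 change -0.33). G2E3, a ubiquitin ligase of G2, went from 45.1 and 43.3 FPKM to 15.9 and 12.9 FPKM (-1.56), SPDL1, which recruits dynein to kinetochores, changed by -1.46, and SGO2, a protector of centromeric cohesion, by -1.36. In eKD2, 8 of the 71 rose and 2 fell, the latter no larger a share than among all genes. CIT, a kinase of cytokinesis (1.17), G2E3 (1.06) and PSRC1 (1.04) had the largest changes.

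Of 13 condensin and cohesin genes, which shape and hold sister chromatids, 8 fell in hypoxia and 0 rose (median -0.46). SMC4, a condensin subunit, went from 306 and 373 FPKM to 135 and 145 FPKM (-1.27), and the cohesin subunits STAG1 and STAG2 changed by -1.16 and -0.77. In eKD2, STAG1 was the single gene called, where eKD2 gave 24.4 and 26.6 FPKM and control hypoxia 10.5 and 12.1 FPKM (1.11, adjusted p = 0.0305 by limma). Of 13 subunits of the anaphase-promoting complex, 5 fell, among them ANAPC7 (-0.95) and ANAPC2 (-0.80). ANAPC11, its catalytic RING subunit, rose from 77.8 and 93.4 FPKM to 192 and 173 FPKM (1.09). In eKD2, ANAPC11 fell by 0.62 on the log2 scale, and ANAPC10 and ANAPC7 rose by 0.91 and 0.45.

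Among 18 DREAM, RB and E2F factors, 6 fell and 3 rose in hypoxia (median -0.06). E2F4, the E2F of the DREAM repressor, went from 34.9 and 32.7 FPKM to 15.2 and 13.1 FPKM (-1.20), with E2F3 at -0.99 and E2F6 at -0.82. In eKD2, E2F5 rose by 0.67 and E2F1 changed by -0.55. Of 15 tested genes of CDK inhibition and cell cycle arrest, 7 rose and 1 fell in hypoxia (median 0.88). CDKN1A, the CDK inhibitor p21, went from 1.27 and 1.55 FPKM to 6.81 and 7.02 FPKM (1.72), GADD45A changed by 1.71 and SESN2 by 1.92. In eKD2, SESN2 (1.09) and BTG1 (0.81) rose and SESN1 (-0.80) fell, with 3 called in each direction.

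Genes of G1/S and DNA replication, the phase before G2, showed no common direction in hypoxia. Of 42, 11 rose and 9 fell (median 0.02), among them CCND2 (0.86), GINS3 (-0.97) and GINS1 (-0.80). In eKD2, 9 of the 42 fell and 1 rose (median -0.20), against 0 lower and 12 higher of the 48 mitosis genes. CCNE1, cyclin E1, went from 18.5 and 18.4 FPKM in control hypoxia to 10.6 and 10.5 FPKM in eKD2 (-0.76), and the replication factors ORC1 and MCM5 changed by -0.70 and -0.61. In eKD1, 0 genes of these lists were called. Between eKD2 and eKD1 the call was SESN2 (2.22), at 28.9 and 29.0 FPKM in eKD2 against 5.45 and 5.40 FPKM in eKD1.

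**Figure D5:**
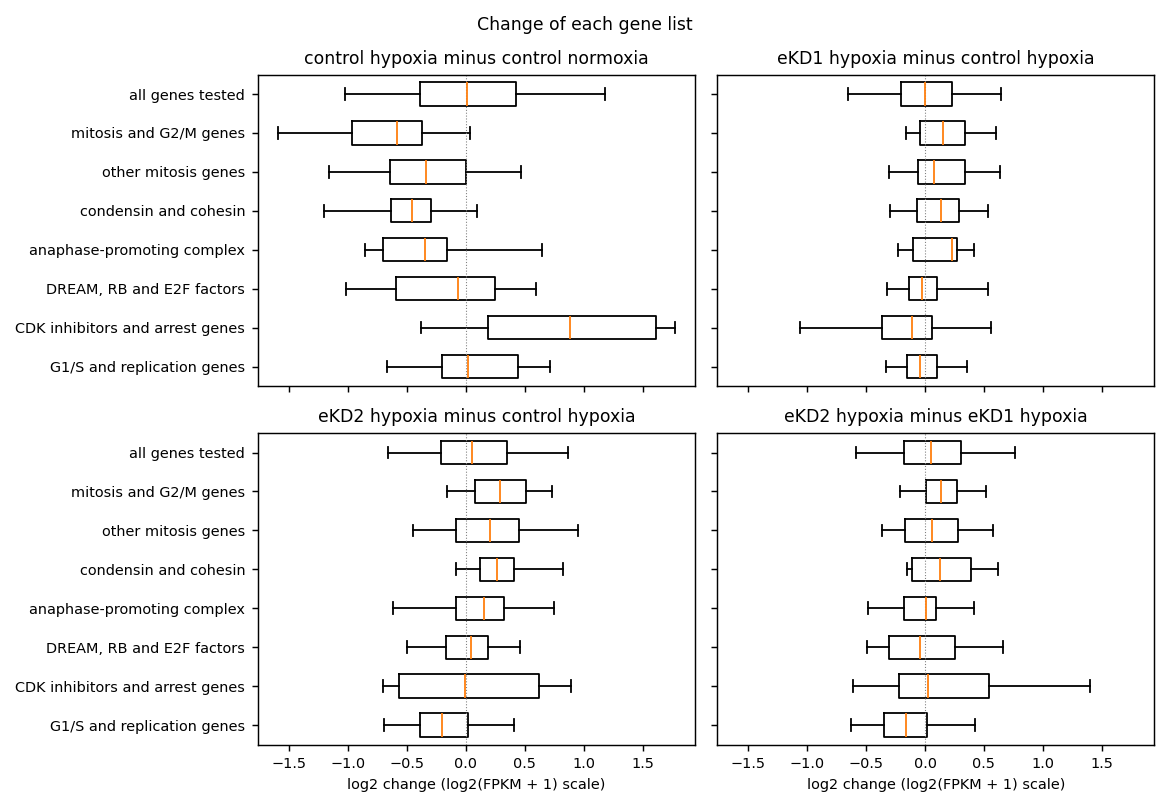
Boxes give the median and quartiles of the log2 change (horizontal axis, log2(FPKM + 1) scale) of each gene list in the 4 comparisons, with whiskers at the 5th and 95th percentiles. In hypoxia the mitosis and G2/M genes have a median of -0.59 beside 0.88 for the CDK inhibitors and arrest genes, and in eKD2 they have 0.29 beside -0.20 for the G1/S and replication genes.

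The 48 genes lie on 18 chromosomes, and all were found in the GENCODE annotation of GRCh37. Exons of 15 share bases with another gene, 11 of them with a coding gene. The library kit kept no strand, so reads in shared bases could belong to either gene. On opposite strands this touches PLK1 (with ERN2), KIF20A (with CDC23 and BRD8), FOXM1 (with ITFG2), CCNA2 (with EXOSC9) and KIF4A (with PDZD11). It also touches ANLN (with MATCAP2) and CDC25C (with FAM53C). CENPA (with SLC35F6), BUB1B (with PAK6) and PRC1 share bases on the same strand, where strand would not tell the genes apart. NUSAP1 has overlaps of both kinds. CCNB1, CDC20, AURKA, ASPM and CENPE share no exon bases.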

How the data were processed

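Poly-A selected, unstranded libraries from biological duplicates were sequenced as single-end reads, and per the methods the authors aligned them to GRCh37 with STAR, then ran cufflinks and cuffnorm to obtain the deposited FPKM. The scaling cuffnorm applied between libraries is not given in the sources used here. The authors tested read counts with DESeq2. Read counts were not used here, so limma 3.58.1 (R 4.3.3) was applied to log2(FPKM + 1), which understates changes of low genes. A gene entered when 2 or more of the 8 libraries had 1 FPKM or more (15372 genes). Each comparison of 2 against 2 libraries was fitted alone with a variance trend and two-sided p-values were adjusted by Benjamini-Hochberg over these 15372 genes. Calls were made at adjusted values under 0.05. SE are limma's. The absolute depth is unknown, and relative depth was read from steps in low values, so no counting interval was computed.

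Groups and replicate numbers came from the sample titles. The main fits did not pair libraries by number. Deviations of same-numbered libraries correlated between -0.050 and 0.037, which with 2 libraries per group cannot show whether they were prepared as pairs. The fit was also run on simulated data, whose outcome is not given and on which no result here rests. Alternatives were another pseudocount, filters, rescalings, a shared fit, no variance trend, a replicate block and each library left out. The 48 genes and all lists were chosen with earlier results of these data known. Values in every library were given for 19 chosen genes and, per comparison, the 4 largest rises and falls among called genes, and up to 3 called genes per further list. Others are named by role with their change. Promoters came from RefSeq (GRCh38.p14) and overlaps from GENCODE on GRCh37. A further marker is not reported here.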

Additional observations from a re-analysis of the deposited data

Results flagged for a closer look

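For 5 of the 48 genes both eKD1 libraries lay on one side of both control hypoxia libraries and both eKD2 libraries on the other. This arrangement was not counted over all genes tested, so whether 5 of 48 exceeds the background was not tested. Lack of overlap with control hypoxia was common, at 27.6% higher and 26.0% lower of all genes in eKD1. In eKD2 it was 35.8% and 26.4%. The log2 difference of eKD2 from eKD1 was 0.44 for CENPK (adjusted p = 0.122 by limma), 0.46 for KIF23 (0.116) and 0.29 for TTK (0.218), which stood higher in eKD2. It was -0.32 for CKS2 (adjusted p = 0.0874 by limma) and -0.58 for INCENP (0.0825), which stood lower. INCENP had 66.9 and 71.6 FPKM in eKD1, 52.7 and 52.2 FPKM in control hypoxia and 44.4 and 47.5 FPKM in eKD2. None of the 5 passed the limma threshold between the guides, and the genes were picked out for this arrangement.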

How the results depend on the processing

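The hypoxia count of 36 genes called was 36 with a pseudocount of 0.1, beside 31.1% of all genes. It was 24 with no filter on low values, beside 11.1% of all genes then tested. The median change of -0.59 was -0.82 with equal library totals. MYBL2 was the called gene that changed sign, at -0.00240 with equal totals. The eKD1 count of 0 was 10 in the shared fit of 8 libraries, beside 4.95% of all genes. The eKD1 median of 0.15 was 0.22 with equal totals. The eKD2 count of 12 was 4 with no filter, beside 3.14% of all genes, and 0 with no variance trend, beside 0.182%. The eKD2 median of 0.29 was 0.22 with median-of-ratios rescaling and 0.39 with equal totals. Between eKD2 and eKD1 the count of 0 was 4 in the shared fit, beside 9.05% of all genes. The median of 0.13 was 0.0853 with median-of-ratios rescaling and 0.17 with equal totals. The cause of these moves was not tested.

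With any single library left out, a fit of the remaining 3 called 0 genes in every comparison, with too few degrees of freedom to pass the threshold. The shared fit without a library, added after seeing the data, called 26 to 32 genes in hypoxia, 0 in eKD1, 5 to 9 in eKD2 and 0 to 1 between the guides. The medians then ran from -0.63 to -0.57 in hypoxia, from 0.15 to 0.19 in eKD1, from 0.27 to 0.30 in eKD2 and from 0.0886 to 0.14 between the guides.

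With the replicate block the count was 29 in hypoxia, beside 16.7% of all genes. It was 0 in eKD1, 0 in eKD2 and 0 between the guides, beside 0 of all genes in each. The labels do not say that the numbers mark a shared day or culture. Over the named genes, with all libraries in and no block, 617 values kept the call they had, of which 9 were uncalled values that changed sign, 23 lost and 15 gained the call. The duplicates leave each comparison with few degrees of freedom, and the unknown depth gives no error for a single library.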
